A study of Ovis aries with 6 samples.

Results

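The genes described here are the FOXO transcription factors FOXO1, FOXO3, FOXO4 and FOXO6 together with the forkhead relatives FOXP1, FOXK1 and FOXK2, as measured in the longissimus muscle of sheep. They were taken by gene symbol from a count table of 23144 genes. Of the 7 symbols, 6 had a row, and FOXK2 was not analysed here. All 6 genes passed the filter on low counts, which left 12506 genes for testing. The genes were chosen with their difference between the breeds already known, so that difference is given for them as a description, without a test.

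RNA from the longissimus muscle, the long muscle of the back, was sequenced in 2 breeds of sheep. Qianhua Mutton Merino (QHMM) is a meat and wool breed derived from South African Mutton Merino rams and Chinese Northeast Fine-wool ewes, and Small Tail Han (STH) is the breed it was compared with. There were 3 libraries per breed, each from 1 female aged 1 year, and both breeds were kept in the same environment without an experimental treatment. The sheep had free access to food, but the study weighed its animals after a fast before slaughter. Levels in fed animals were not measured. STH was compared with QHMM throughout, so a positive log2 fold change is higher in STH. The animals of a breed differ in genotype, and how the 3 sequenced animals were picked is not given in the sources used here. Library totals ran from 10982191 to 14334544 counts. The muscle fibre genes ACTA1, CKM, MYH1, MYH2 and TTN were abundant in all 6 libraries, whereas TNNT3, on the same list of muscle fibre markers, was listed at 0 in each. In bulk tissue, fewer cells of a type and less RNA per cell cannot be told apart.

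FOXO proteins are transcription factors that bind DNA through a forkhead domain and stand at the end of the insulin and IGF pathway. When the pathway is active, AKT phosphorylates them and 14-3-3 proteins hold them in the cytoplasm; when it is quiet, they enter the nucleus and switch on genes for protein breakdown, autophagy, cell cycle arrest and the use of fatty acids. In skeletal muscle, FOXO1 and FOXO3 are best known for driving atrophy genes. FOXP1 and the FOXK proteins carry the same kind of domain but act mainly as repressors, and FOXK proteins compete with FOXO at autophagy genes. Because FOXO activity is set largely by phosphorylation and location, mRNA levels do not measure it.

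Among the FOXO genes, FOXO1 and FOXO3 were higher in every STH library, FOXO6 was lower in every STH library, and FOXO4 overlapped between the breeds. Values are CPM, reads of a gene scaled to a common library size, after TMM normalization, which adjusts library totals for differences in composition. FOXO1, the member most studied in fasting muscle, stood at 20.4, 16.7 and 10.4 CPM in QHMM replicates 1, 2 and 3 and at 74.4, 184 and 143 CPM in the STH replicates. Its lowest STH library was well above its highest QHMM library, and the counts behind these values ran from 133 to 296 in QHMM and from 1166 to 2232 in STH. The mean was 15.8 ± 5.05 CPM in QHMM and 134 ± 55.5 CPM in STH (SD, n = 3 each), an 8.45-fold ratio. The fitted log2 fold change was 3.08 (SE 0.37), with a 95% interval of 2.26 to 3.90. Ordered by log2 fold change, FOXO1 was number 30 from the top of the 12506 genes.

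FOXO3, which shares many targets with FOXO1 and activates both ubiquitin ligase and autophagy genes, stood at 20.8, 25.3 and 22.0 CPM in QHMM and at 52.1, 140 and 117 CPM in STH. The QHMM libraries lay close together, with a coefficient of variation of 10.2%, and the STH libraries spread over a coefficient of variation of 44.2%. FOXO1 varied by 31.9% in QHMM and 41.5% in STH. The FOXO3 mean was 22.7 ± 2.32 CPM in QHMM and 103.0 ± 45.5 CPM in STH (SD, n = 3 each), a 4.54-fold ratio, and the log2 fold change was 2.18 (SE 0.34; 95% interval 1.44 to 2.93). It was number 75 from the top. In both FOXO1 and FOXO3, STH replicate 2 was the highest library and STH replicate 1 the lowest.

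**Figure D1:**
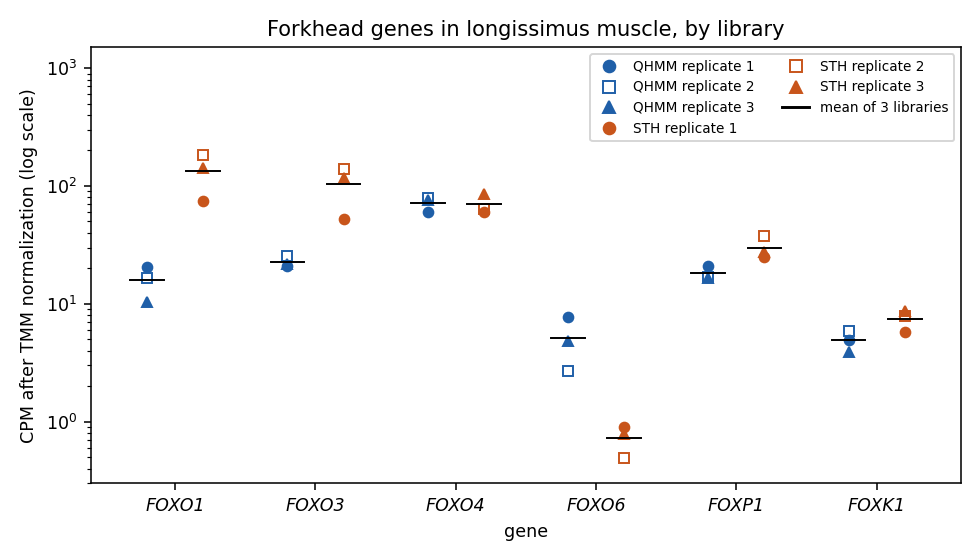
Level of each gene in each library, in CPM after TMM normalization on a log axis, with genes along the other axis, a symbol for each of the 3 libraries of a breed and a line at the breed's mean. The STH points lie above all QHMM points for FOXO1, FOXO3 and FOXP1, below them for FOXO6, and overlap with them for FOXO4 and FOXK1.

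FOXO4, a member known from endothelial and smooth muscle cells as well as muscle, stood at 59.7, 79.7 and 76.6 CPM in QHMM and at 60.2, 63.9 and 85.9 CPM in STH. The breeds overlapped, and the means were 72.0 ± 10.7 and 69.99 ± 13.9 CPM (SD, n = 3 each). Its log2 fold change was -0.04 (SE 0.23), with a 95% interval of -0.54 to 0.46, and its sign depended on the fit. Endothelial marker genes, given here because FOXO4 is also expressed in vessels, summed to 697 to 753 CPM in QHMM and 726 to 862 CPM in STH. Of the 7 endothelial markers, CLDN5 was at 0 in all libraries, and the 6 that passed the filter had a median log2 fold change of 0.10.

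FOXO6, the member that differs from the others in staying largely in the nucleus, stood at 7.66, 2.72 and 4.87 CPM in QHMM and at 0.893, 0.496 and 0.780 CPM in STH. These values rest on 111, 30 and 62 counts in QHMM and on only 14, 6 and 9 counts in STH. The highest STH library was below the lowest QHMM library, and the means were 5.08 ± 2.48 and 0.723 ± 0.205 CPM (SD, n = 3 each). The log2 fold change was -2.79 (SE 0.47; 95% interval -3.83 to -1.76), which put FOXO6 at number 35 from the bottom of the list. Without QHMM replicate 1 the log2 fold change was -2.39, and FOXO6 was then no longer past the thresholds used for calling.

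Adipocyte markers ran in the same direction as FOXO6. The summed level of ADIPOQ, PLIN1, LEP, CIDEC and FABP4 was 386, 115 and 169 CPM in QHMM. In STH it was 79.9, 57.8 and 51.7 CPM. Of the 5 genes, edgeR called 4 lower in STH, with FABP4 the exception, beside 1.83% of all tested genes. Within QHMM, replicate 1 was the highest and replicate 2 the lowest library for both the adipocyte sum and FOXO6. The endothelial and satellite cell sums had the same order there. However, the endothelial sums of replicates 2 and 3 were nearly equal (697.1 and 697.8 CPM), and the satellite cell sum was at most 8.42 CPM. Within STH the orders differed. FOXO6 and the fibroblast and satellite cell sums were lowest in replicate 2, and the adipocyte, endothelial and leukocyte sums in replicate 3. None of the 5 adipocyte markers was at 0 in all libraries, although LEP had 0 counts in STH replicate 2, and the part of adipocytes in the FOXO6 difference was not tested. The fibroblast sum was also lower in STH without overlap, at 1377 to 2308 CPM in QHMM and 494 to 1077 CPM in STH. Among its single genes this held for the collagens COL1A1 (means 683 and 278 CPM) and COL1A2 (means 687 and 264 CPM). PDGFRA, DCN and LUM overlapped between the breeds. Of the 5 fibroblast markers edgeR called 0, beside 3.45% of all tested genes. Leukocyte markers summed to 74.7 to 102 and 58.1 to 98.9 CPM, and satellite cell markers to 2.17 to 8.42 and 2.07 to 7.28 CPM. The parts of these cells were not tested either.

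FOXP1 did not overlap between the breeds and FOXK1 did, and neither was past the calling thresholds in edgeR. The study itself listed FOXP1 as higher in STH at these thresholds, with a different test, EBSeq. FOXP1, a repressor that works with deacetylase complexes, stood at 20.8, 17.0 and 16.6 CPM in QHMM and at 25.2, 37.4 and 27.4 CPM in STH. Every STH library was above every QHMM library, the means were 18.1 ± 2.31 and 30.0 ± 6.52 CPM (SD, n = 3 each), and the log2 fold change was 0.73 (SE 0.23; 95% interval 0.21 to 1.24). As in FOXO1 and FOXO3, STH replicate 2 was highest and STH replicate 1 lowest in CPM. In RPKM, which scales by gene length and library total without TMM, STH replicate 3 was lowest for FOXP1 (8.36, 11.4 and 6.47 in replicates 1, 2 and 3). FOXK1, which restrains autophagy genes in muscle under feeding and recruits SIN3A, stood at 4.97, 5.88 and 3.93 CPM in QHMM and at 5.81, 7.85 and 8.75 CPM in STH. Here the lowest STH library was just below the highest QHMM library, and the log2 fold change was 0.60 (SE 0.28), with a 95% interval of -0.03 to 1.23.

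Across all genes, edgeR's quasi-likelihood test called, at a Benjamini-Hochberg FDR below 0.05 and more than 1.5-fold in either direction, 3.45% of the 12506 genes, 1.62% higher and 1.83% lower in STH. By this rule 3 of the 6 genes were called, FOXO1 and FOXO3 higher and FOXO6 lower. In 4 of the 6 genes the breeds did not overlap, as in 24.7% of all tested genes. The genes were chosen on this contrast, so nothing is read from these counts. The median log2 fold change of all tested genes was 0.02.

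**Figure D2:**
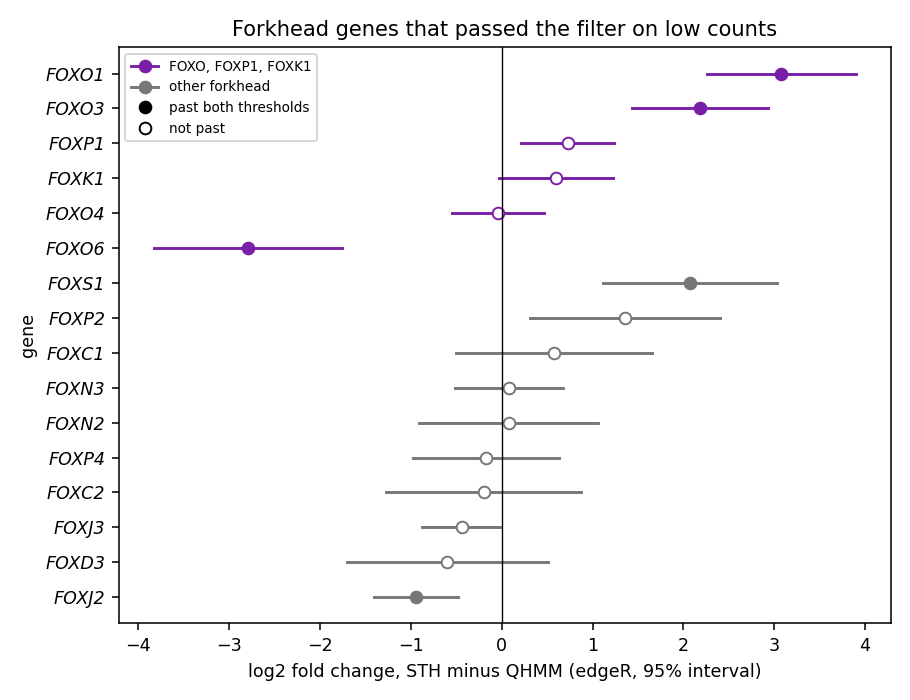
Log2 fold change (STH against QHMM, edgeR) of the 6 genes and of the 10 other forkhead genes that passed the filter, with bars for the 95% interval and filled points for genes past the thresholds. FOXO1 and FOXO3 lie furthest to the right with FOXS1, and FOXO6 furthest to the left.

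The table held 29 other forkhead genes. Of these, 10 had no reads in any library, 9 had reads but were below the filter with at most 11 counts in a library, and 10 were tested. Of the 10 tested, 2 were called by edgeR and 5 did not overlap between the breeds, beside 3.45% and 24.7% of all tested genes. The median log2 fold change of the 10 was -0.05. FOXS1, a forkhead factor of perivascular cells, stood at 5.32, 21.8 and 12.8 CPM in QHMM and at 66.4, 38.1 and 62.8 CPM in STH, a rise (log2 fold change 2.07, SE 0.43, edgeR FDR 0.0314). FOXJ2 stood at 82.0, 91.3 and 81.4 CPM in QHMM and at 50.5, 44.6 and 37.5 CPM in STH, a fall (log2 fold change -0.94, SE 0.21, edgeR FDR 0.0396). FOXS1 was highest in STH replicate 1, the library in which FOXO1 and FOXO3 were lowest among STH. Neither call held in every fit with 1 library left out. None was left when QHMM replicate 1, QHMM replicate 3 or STH replicate 3 was taken out, and 1 was left without QHMM replicate 2 or STH replicate 2. Calls over all genes fell too, from 432 to 131, 150 and 329 in the first 3 of these fits and to 208 and 183 in the last 2.

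Levels of different genes were compared on the deposited RPKM scale, which divides by gene length. The lengths used ran from 1087 bases for FOXO6 to 4236 for FOXO1, so the order depends on these gene models. In QHMM, FOXO4 had 39.5, 44.4 and 51.7 RPKM, above FOXO3 with 13.1, 13.4 and 14.1 RPKM, and these 2 genes led in that order in every library. FOXP1 (4.02 to 5.82 RPKM), FOXO6 (2.13 to 7.12 RPKM) and FOXO1 (2.54 to 4.88 RPKM) followed with overlapping ranges. FOXK1 had 1.83 to 2.28 RPKM, a range that overlapped only with that of FOXO6.

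In STH the order was different. FOXO3 had 38.9, 96.1 and 62.3 RPKM, FOXO4 47.1, 46.2 and 47.9 RPKM, and FOXO1 21.0, 48.0 and 28.7 RPKM. FOXO4 was first in STH replicate 1 and FOXO3 in replicates 2 and 3, so these neighbours did not differ beyond their spread, and neither did FOXO4 and FOXO1. Below them FOXP1 had 6.47 to 11.4 RPKM, FOXK1 3.15 to 3.93 RPKM and FOXO6 0.503 to 0.983 RPKM, in the same order in all 3 libraries and with no overlap. Set against the other tested genes of the same library, FOXO1 exceeded 32.3% to 48.6% of them in QHMM and 79.0% to 89.9% in STH. FOXO6 exceeded 34.1% to 58.6% in QHMM and 5.98% to 11.5% in STH, whereas FOXO4 stayed between 88.7% and 91.1% in all 6 libraries.

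The make-up of the FOXO mRNA pool followed from these levels. The summed RPKM of the 4 FOXO genes was 64.7, 63.3 and 72.9 in QHMM and 108.0, 191 and 140 in STH. FOXO4 held 67.4% ± 5.40 of the sum in QHMM and 34.1% ± 9.73 in STH (SD, n = 3 each). FOXO3 held 20.3% ± 0.915 in QHMM and 43.7% ± 7.25 in STH, and FOXO1 held 5.43% ± 2.04 and 21.7% ± 3.02. The share of FOXO6 was 6.90% ± 3.86 in QHMM and 0.537% ± 0.335 in STH. The ratio of FOXO1 to FOXO3 RPKM was 0.372, 0.249 and 0.180 in QHMM and 0.540, 0.499 and 0.461 in STH, so FOXO3 was above FOXO1 in every library.

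**Figure D3:**
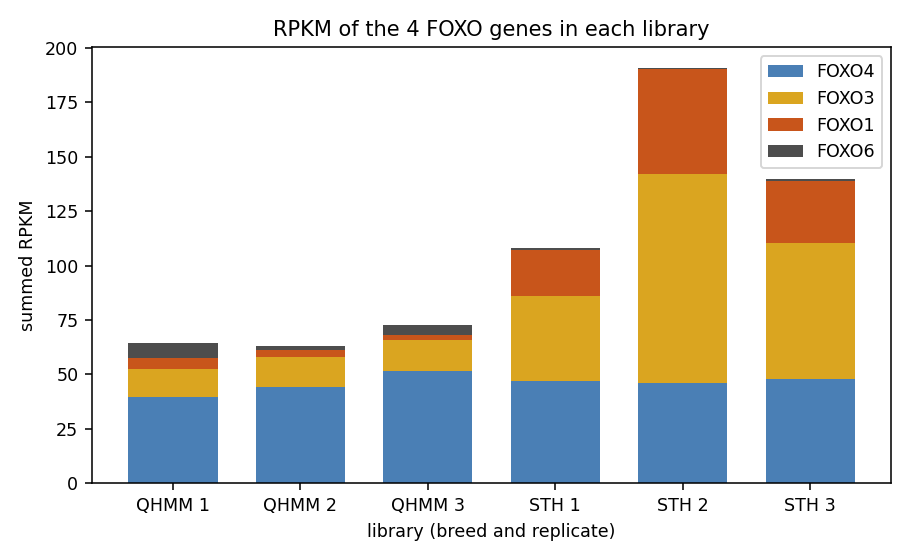
RPKM of FOXO1, FOXO3, FOXO4 and FOXO6 stacked for each of the 6 libraries, so that the height of a bar is their summed RPKM. The FOXO4 segment is similar in all bars (39.5 to 51.7 RPKM), and the STH bars are taller through their FOXO3 and FOXO1 segments.

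Known FOXO target genes rose in part. Of 51 listed targets, 50 had a row and 47 were tested, of which edgeR called 11 higher and 0 lower in STH (23.4% higher, against 1.62% of all genes). The lists were chosen with earlier results of these data known, so these shares are a description and no enrichment is read from them. The median log2 fold change of the 47 genes was 0.20, with 30 above and 17 below 0. At an unadjusted edgeR p below 0.05, 19 were higher and 6 lower, beside 2395 of the 12506 genes in either direction. Calls of lower targets were made by DESeq2 and by edgeR without the filter on low counts (15 higher and 4 lower in each, the lower ones CCND1, SOD2, PCK1 and LPL). Leaving out QHMM replicate 2 gave PCK1 as a lower call, and leaving out STH replicate 1 gave CCND1. The breeds did not overlap in 20 targets that were higher and 5 that were lower in STH, and in 13.0% and 11.7% of all tested genes. The count of calls fell to 4 without QHMM replicate 1, to 5 without QHMM replicate 3, to 6 without STH replicate 2 and to 7 without STH replicate 3. Calls over all genes fell from 432 to 131, 150, 183 and 329 in the same fits. Most of these genes also answer to other regulators.

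Of the 4 ubiquitin ligase targets, edgeR called 2 higher in STH, beside 1.62% of all tested genes. The median log2 fold change was 2.49, with 3 genes above and 1 below 0. TRIM63, the muscle ligase MuRF1, stood at 262, 271 and 209 CPM in QHMM and at 1295, 4715 and 2525 CPM in STH (log2 fold change 3.52, SE 0.44, edgeR FDR 0.00489). FBXO32, the ligase atrogin-1, stood at 41.0, 73.9 and 52.8 CPM in QHMM and at 160, 783 and 132 CPM in STH (log2 fold change 2.68, SE 0.61, edgeR FDR 0.0433). Both ligases were highest in STH replicate 2, as were FOXO1 and FOXO3. FBXO30, the ligase MUSA1, was not called, with 8.84, 8.42 and 9.97 CPM in QHMM and 14.5, 103.5 and 15.8 CPM in STH (log2 fold change 2.29, edgeR FDR 0.0848). STH replicate 2 alone stood far from the rest in FBXO30, as it did in FBXO32. In both genes every STH library was above every QHMM library. FBXO21 had a log2 fold change of -0.11. Without any 1 of the QHMM replicates, and in every limma fit on RPKM, TRIM63 was the 1 ligase called.

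Of the 13 autophagy targets tested, edgeR called 3 higher in STH, beside 1.62% of all tested genes. The median log2 fold change was 0.46, with 10 genes above and 3 below 0. GABARAPL1 and MAP1LC3A encode ATG8-family proteins of the autophagosome membrane, and BNIP3 is a mitochondrial receptor for mitophagy. GABARAPL1 stood at 46.8, 43.6 and 44.1 CPM in QHMM and at 75.4, 164 and 139 CPM in STH (log2 fold change 1.49, SE 0.28, edgeR FDR 0.0225). BNIP3 stood at 163, 188 and 129 CPM in QHMM and at 295.0, 512 and 496 CPM in STH (log2 fold change 1.44, SE 0.28, edgeR FDR 0.0248). In MAP1LC3A the QHMM libraries had 63.5, 75.1 and 71.4 CPM and the STH libraries 103, 163 and 223 CPM (log2 fold change 1.22, SE 0.28, edgeR FDR 0.0447). The most abundant autophagy genes that were not called were PINK1, ULK1 and BECN1, with log2 fold changes of -0.41, 0.71 and 0.13. The 3 autophagy calls went to 0 without QHMM replicate 1, 2 or 3 or STH replicate 2, and to 1 without STH replicate 3.

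**Figure D4:**
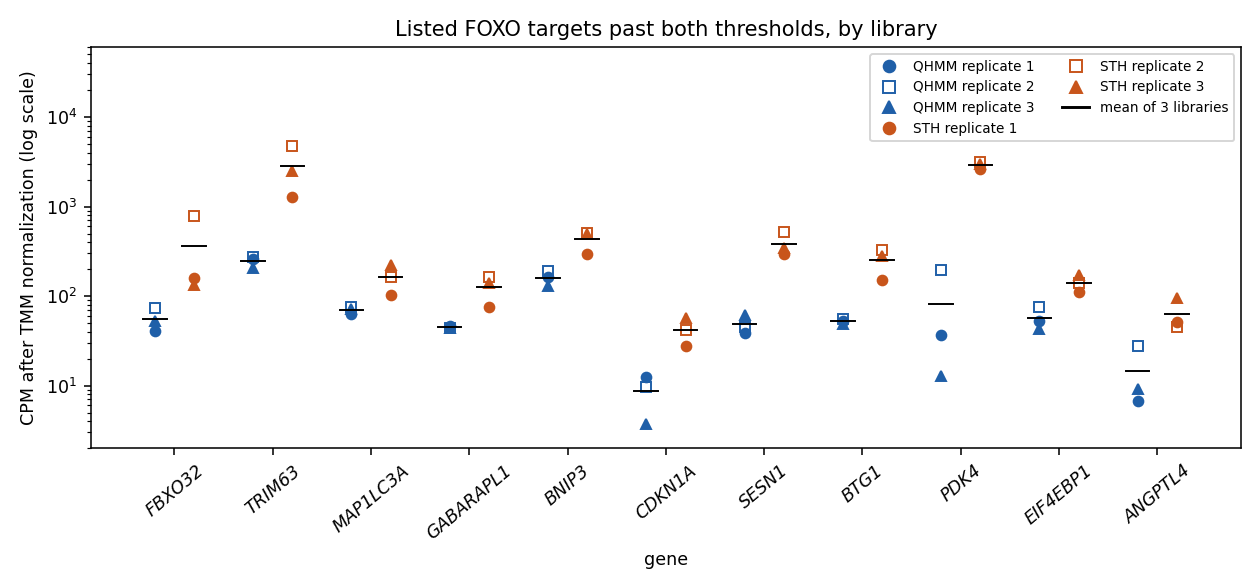
Level of the 11 called FOXO target genes in each library, in CPM after TMM normalization on a log axis, with a symbol for each of the 3 libraries of a breed and a line at their mean. In all 11 genes the lowest STH library lies above the highest QHMM library, and PDK4 has the widest gap, from 197 CPM in its highest QHMM library to 2631 CPM in its lowest STH library.

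Of the 21 targets of growth arrest and stress defence, edgeR called 3 higher in STH, beside 1.62% of all tested genes. The median log2 fold change over the list was 0.18, with 12 genes above and 9 below 0. SESN1, a stress protein that restrains mTORC1, stood at 38.5, 45.3 and 61.0 CPM in QHMM and at 297, 519 and 341 CPM in STH (log2 fold change 3.0, SE 0.30, edgeR FDR 0.00231). BTG1, an antiproliferative protein, stood at 52.4, 54.9 and 48.8 CPM in QHMM and at 153, 331 and 280.0 CPM in STH (log2 fold change 2.29, SE 0.30, edgeR FDR 0.00559). In CPM both followed the library order of FOXO1 within STH. In RPKM, which is not adjusted by TMM, BTG1 kept that order but SESN1 was lowest in STH replicate 3. CDKN1A, the cell cycle inhibitor p21, stood at 12.5, 9.68 and 3.69 CPM in QHMM and at 28.0, 41.4 and 56.3 CPM in STH (log2 fold change 2.28, SE 0.41, edgeR FDR 0.0193). The antioxidant enzymes CAT and SOD2 were not called, with log2 fold changes of -0.39 and -0.93, and neither was TXNIP, an inhibitor of thioredoxin, with 1.10.

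Of the 9 metabolic targets tested, edgeR called 3 higher in STH, beside 1.62% of all tested genes. The median log2 fold change was 0.04, with 5 genes above and 4 below 0. PDK4, the kinase that shuts off pyruvate dehydrogenase and so spares glucose, stood at 36.7, 197 and 12.7 CPM in QHMM and at 2631, 3174 and 2990 CPM in STH (log2 fold change 5.16, SE 0.86, edgeR FDR 0.0137). Its QHMM libraries differed among themselves far more than its STH libraries. ANGPTL4, an inhibitor of lipoprotein lipase, stood at 6.70, 27.8 and 9.11 CPM in QHMM and at 50.9, 44.9 and 94.6 CPM in STH (log2 fold change 2.13, SE 0.50, edgeR FDR 0.0450). EIF4EBP1, a repressor of cap-dependent translation, stood at 52.9, 75.6 and 42.7 CPM in QHMM and at 112, 139 and 171 CPM in STH (log2 fold change 1.30, SE 0.27, edgeR FDR 0.0306). The lipase genes PNPLA2 and LPL had log2 fold changes of 1.09 and -1.66 and were not called, and MSTN, which encodes the growth inhibitor myostatin, had -0.75. The metabolic calls went to 0 without QHMM replicate 1 and to 1 when QHMM replicate 3 or either of STH replicates 2 and 3 was taken out, and DESeq2 and the unfiltered edgeR fit each called 4 higher and 2 lower.

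The order of the 3 STH libraries was set beside that of FOXO1 and FOXO3, a comparison chosen after the values were seen. Of the 11 called targets, 7 were highest in STH replicate 2 (63.6%), compared with 57.1% of the 203 genes called higher in STH and 33.1% of all tested genes. The full order of FOXO1 and FOXO3 was shared by 6 of the 11 called targets, by 14 of the 47 tested targets (29.8%), by 40.9% of the 203 genes and by 15.4% of all tested genes. Genes of a library share its normalization factor, so these shares are descriptions of the 3 libraries.

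Upstream of FOXO, most genes were not called, as among all tested genes, of which 3.45% were called. Of the 16 tested genes that carry the insulin and IGF signal to AKT, edgeR called 2, both higher in STH, beside 1.62% of all genes. The breeds did not overlap in 7 that were higher and 2 that were lower in STH, and in 13.0% and 11.7% of all tested genes. The median log2 fold change was 0.32. PIK3R1, the p85 regulatory subunit of PI3-kinase, stood at 52.7, 57.7 and 81.4 CPM in QHMM and at 118, 264 and 191.0 CPM in STH (log2 fold change 1.58, SE 0.31, edgeR FDR 0.0257). It had the same library order within STH as FOXO1. IGF1R, the IGF-I receptor, stood at 23.1, 28.0 and 33.1 CPM in QHMM and at 67.8, 69.3 and 56.2 CPM in STH (log2 fold change 1.20, SE 0.22, edgeR FDR 0.0193). MTOR and AKT2, kinases of the pathway, had log2 fold changes of 0.40 and -0.03, and IRS1, an adaptor of the receptors, had -1.10 (edgeR FDR 0.0667), all without a call. Neither PIK3R1 nor IGF1R was called without QHMM replicate 1, without QHMM replicate 2 or without STH replicate 2, and IGF1R alone was called without QHMM replicate 3. Calls over all genes also fell in each of these fits.

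**Figure D5:**
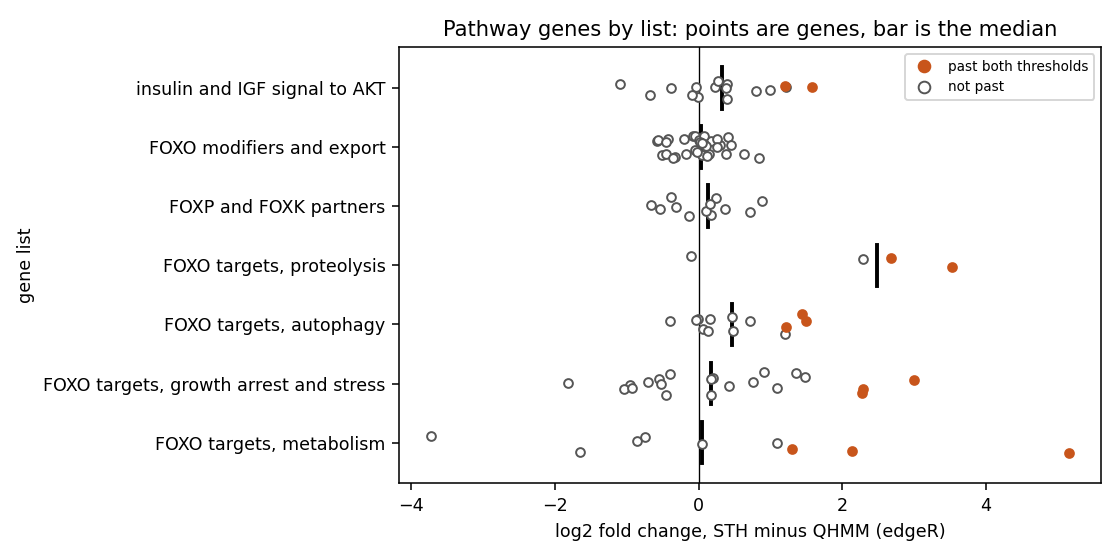
Log2 fold change (STH against QHMM, edgeR) of each tested gene in the 7 lists of genes around FOXO, FOXP and FOXK, with filled points for called genes and a bar at the median of each list. The called genes all lie to the right of 0, and the medians run from 0.03 for the modifiers to 2.49 for the ubiquitin ligase targets.

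Genes whose products modify FOXO proteins or move them between nucleus and cytoplasm were measured in full, with 32 of 32 tested and a median log2 fold change of 0.03. edgeR called 0 of them, beside 3.45% of all tested genes. With an unadjusted edgeR p below 0.05, 2 were higher and 1 lower, beside 2395 of the 12506 tested genes in either direction. DESeq2 and the 3 limma fits each called 1, the 14-3-3 gene YWHAH, higher in STH. The most abundant were YWHAE, another 14-3-3 gene, the ubiquitin ligase gene STUB1 and the deacetylase gene SIRT2, with log2 fold changes of 0.01, -0.08 and 0.04. Among partners of FOXP and FOXK proteins, 12 of 13 were tested and the median log2 fold change was 0.13. Here too edgeR called 0, beside the same 3.45% of all tested genes. At an unadjusted edgeR p below 0.05, 2 partners were higher and 2 lower, and ASXL1 was called higher in STH by DESeq2, by edgeR without the filter and without STH replicate 1. Among the most abundant partner genes, DVL1 and BAP1 had log2 fold changes of -0.67 and 0.17.

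Genes were also ordered by how closely their log2 CPM followed that of a FOXO gene over the 6 libraries, among 11998 genes with a mean of at least 1 CPM. Since the breeds form separate clusters for these genes, the coefficients describe likeness of pattern only. Coefficients above 0.95 were reached by 140 genes for FOXO1, 190 for FOXO3 and 92 for FOXO6, so the genes named below are not singular. For FOXO1 the nearest were LOC101102999, whose gene ID is that of GLUL (glutamine synthetase) in RefSeq, SLC25A33, a mitochondrial nucleotide carrier, and ALDH18A1, an enzyme of proline synthesis, with Pearson coefficients of 0.998, 0.996 and 0.996. For FOXO3 they were LOC101120670, with the RefSeq gene ID of MAX, HMOX2, the constitutive heme oxygenase, and ORAOV1 (0.999, 0.997 and 0.996). For FOXO6 they were SCARB1, a receptor for high-density lipoprotein, TTC9C and COL15A1, a basement membrane collagen (0.998, 0.997 and 0.996). MYOD1, the myogenic factor that the study set beside FOXO1, ran the other way, with 13.5, 24.9 and 15.8 CPM in QHMM and 5.49, 0.744 and 2.43 CPM in STH (log2 fold change -2.61, SE 0.53, edgeR FDR 0.0292). It was lowest in STH replicate 2, the library with the most FOXO1.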

How the data were processed

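The authors sequenced poly(A) RNA on the Ion Proton, mapped the reads to the sheep genome (Oar 3.1) and deposited reads per gene as raw counts. The authors also deposited RPKM, which scales the counts by gene length and library total. The aligner and counter are not given in the sources used here, and neither is the use of strand in counting.

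Counts were tested in R 4.3.3 with edgeR 4.0.16 (TMM, filterByExpr, quasi-likelihood test, breed as the only term). Genes were called at a Benjamini-Hochberg FDR below 0.05 over 12506 genes and a change of more than 1.5-fold. SE was the log2 fold change divided by the root of F. RPKM served for levels between genes and for limma 3.58.1, in which 25 names turned into dates were left out. Other fits used DESeq2 1.42.0, other scaling or filtering, the replicate number as a block, or 5 libraries. The fits were tested on simulated counts. Figures were drawn with matplotlib 3.10.9.

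The genes and lists were chosen with earlier results of these data known. Of 145 listed genes, 126 matched by symbol, 11 by RefSeq gene ID and 6 by the table's second symbol. IRS2 and CD36 were not analysed here. Named were the called genes of a list (at most 6), its 3 most abundant others, the called forkhead genes, the 3 nearest patterns and MYOD1. A gene that this rule names is not reported here. P-values set the difference between the breeds against the variation between animals, with 3 animals per breed. That variation was estimated with information shared across genes.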

Additional observations from a re-analysis of the deposited data

How the results depend on the processing

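FOXO1 and FOXO3, chosen on this contrast, had log2 fold changes of 2.76 to 3.35 and 1.89 to 2.49 when 1 library was left out. FOXO4, not called, changed sign between fits (-0.21 to 0.04 when 1 library was left out). FOXO6 had a log2 fold change of -1.63 in limma on log2(RPKM + 1), with and without the filter on low values, and was not called without the filter. Its range when 1 library was left out was -3.08 to -2.39. The pseudocount of 1 compresses low values. Limma on log2(RPKM + 1) and log2(RPKM + 0.1) moved the median of all genes to 0.12 and 0.14, the share of calls higher in STH from 47.0% to 61.3% and 61.9%, and the median of the genes upstream of and around FOXO from 0.07 to 0.17 and 0.19.

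Calls over all genes numbered 432, against 973 in DESeq2, 806 without the filter, 78 in unfiltered limma and 131 to 535 when 1 library was left out. Called FOXO targets numbered 11, against 19 in DESeq2, 19 without the filter, 6 in unfiltered limma and 4 to 15 when 1 library was left out. TRIM63, SESN1 and BTG1 were called in every alternative. Called upstream genes and partners numbered 2, against 7, 5, 1 and 0 to 4. Other forkhead calls numbered 2, against 1 in each filtered limma fit, 0 in unfiltered limma (FOXS1 and FOXJ2 both lost) and 0 to 2 when 1 library was left out. The causes were not tested.

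Replicate numbers were not treated as pairs. The deviations of libraries with the same number correlated at 0.23, -0.04 and -0.13, and those with different numbers at -0.26 to 0.29. With 3 libraries per breed these values cannot exclude a pairing. With the number as a block, 457 genes were called, 15 of them FOXO targets (13 higher, and CCND1 and PCK1 lower), FOXJ2 was lost, which left 1 other forkhead call, and FOXO1, FOXO3 and FOXO6 had log2 fold changes of 3.04, 2.07 and -2.76. No alternative was run for FOXK2, which had no row here. FOXO6, at 6 to 14 counts in STH, had the fewest counts of the 6 genes measured.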
